A study of Drosophila melanogaster with 2 samples.

Results

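The genes for proteins of the mitochondrial ribosome were examined for binding of Sox102F in Drosophila embryos. They were chosen by symbol, as all Ensembl protein-coding genes whose name starts with mRpL or mRpS, and 73 such genes were found among the 13968 protein-coding genes of the 7 chromosome arms. The gene family itself was selected on these data, because high peaks at its promoters were already known, so its binding is described here and not tested. Sox102F is a SoxD-family protein that binds DNA through an HMG box. Chromatin immunoprecipitation followed by sequencing (ChIP-seq) was made from whole embryos at 12 to 14 h, from a transgenic line that stably expresses Sox102F fused at its C-terminus to green fluorescent protein (GFP), with sonicated chromatin and an antibody against GFP. The antibody field of the labels names Sox102F, while the description names GFP. The 2 samples were biological replicates of that 1 group, numbered 2 and 3, and no untagged or second group was analysed here. Because all cell types of the embryo were mixed, binding in a few cells and weak binding in many could not be told apart.

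Mitochondria keep a small genome of their own that encodes a few respiratory chain subunits, together with the RNAs needed to translate them. The ribosome that does this is assembled inside the organelle from ribosomal RNAs of the mitochondrial genome and from a large set of proteins that are all encoded in the nucleus, made in the cytoplasm and imported. Symbols with L name proteins of the large subunit, which joins amino acids, and symbols with S name proteins of the small subunit, which reads the messenger RNA. Low numbers follow the homologous proteins of bacterial ribosomes, and higher numbers were mostly given to proteins that mitochondrial ribosomes have in addition. Such genes are active in nearly all cells.

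A gene was called bound when a peak summit, the base of highest signal in a peak, lay within 500 bp of any of its transcription start sites (TSSs). The authors deposited 1 list for each replicate and 1 for both replicates pooled, each of 30000 peaks, and a list called optimal by a test of reproducibility. The optimal list held 7488 peaks, which were the 7488 highest of the pooled list. Each peak carries the authors' signal value, a score that ranks peaks within a list and is not comparable between lists. The lists hold no read counts, so depth was unknown, and the spread between the replicates was the only measure of error.

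In the optimal list 20 of the 73 mitochondrial ribosomal protein genes were bound (27.4%), beside 16.9% of all protein-coding genes. Weaker peaks of the pooled list raised this to 24 members (32.9%), beside 29.5% of all genes, a share near the background. The list of replicate 2 bound 22 members (30.1%) beside 28.6% of all genes, again near it. The list of replicate 3 bound 38 (52.1%) beside 37.0%, so the replicates differed by 16 members.

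Both subunits were represented. Of the 47 large-subunit genes 10 were bound in the optimal list (21.3%), and of the 26 small-subunit genes also 10 (38.5%). Over all protein-coding genes the share was 16.9%. Replicate 2 bound 10 large-subunit genes (21.3%) and 12 small-subunit genes (46.2%), beside 28.6% of all genes. Replicate 3 bound 25 large-subunit genes (53.2%) and 13 small-subunit genes (50%), beside 37.0%. The order of the subunits was thus not the same in the list of replicate 3. Of the 42 members with numbers in the range of bacterial ribosomal proteins 12 were bound in the optimal list (28.6%). Of the 31 with higher numbers 8 were bound (25.8%), both beside the same 16.9%.

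**Figure D1:**
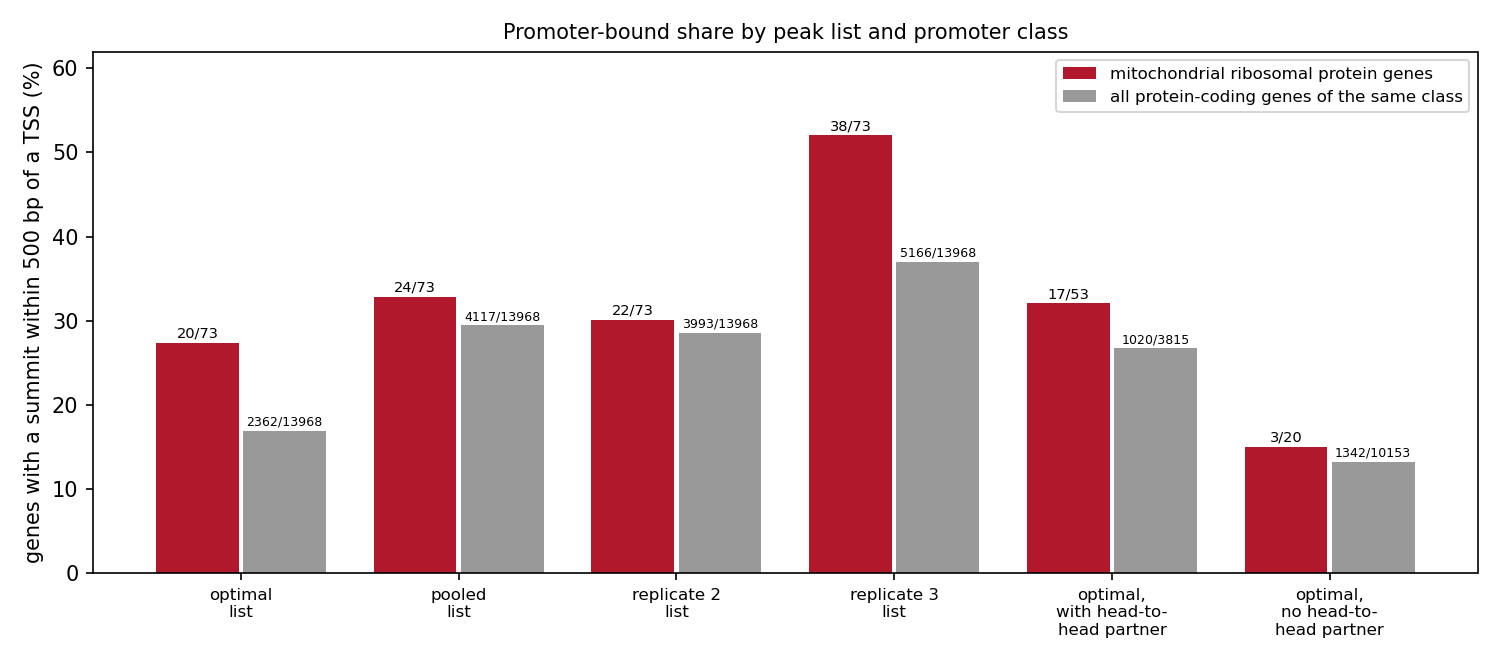
Share of genes with a peak summit within 500 bp of a TSS (vertical axis, %), for the mitochondrial ribosomal protein genes (red) and all protein-coding genes of the same class (grey), with bound genes and genes in the class above each bar. The gap is widest for replicate 3 (38 of 73 members) and small for replicate 2 (22 of 73).

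The highest peaks at large-subunit genes lay among the highest of the whole list. The promoter of mRpL41 (FBgn0034001, dm6 arm 2R, 15217564 to 15218018) had a signal value of 4778, rank 2 of 7488. It had 1850 in replicate 2, rank 1 of that list, and 2944 in replicate 3, rank 2. The summit lay 141 bp upstream of the TSS, and no other protein-coding gene had a TSS within 500 bp of it. At mRpL23 (arm 3L, 2373403 to 2373809) the signal value was 2274, rank 41, with ranks of 56 in replicate 2 and 36 in replicate 3. Its summit lay 58 bp downstream of the TSS, in the 5′ UTR, and 108 bp upstream of the TSS of CG9004.

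The next large-subunit promoters came well below these 2. The peak at mRpL24 (arm 2L, 4945292 to 4945668) had 1334, rank 183, and ranked 187 in each of the replicates. It lies between mRpL24 and betaggt-I, which encodes the beta subunit of an enzyme that attaches geranylgeranyl lipids to proteins. At mRpL20 (arm 3L, 13017934 to 13018322) the value was 1169, rank 246, with ranks of 215 in replicate 2 and 267 in replicate 3. Its partner there is Icmt, the methyltransferase that acts on prenylated cysteines. The next large-subunit gene was mRpL37, with a signal value of 338, rank 2057. The remaining 5 were mRpL4, mRpL32, mRpL50, mRpL19 and mRpL21, with signal values from 258 at mRpL4 to 103 at mRpL21.

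Among small-subunit genes mRpS10 stood first (FBgn0038307, arm 3R, 15229317 to 15229745), with a signal value of 3348, rank 8. It had 1301 in replicate 2, rank 7, and 2059 in replicate 3, rank 9. The summit lay 130 bp upstream of mRpS10 and 127 bp upstream of Art3, an arginine methyltransferase gene, almost midway between them. The peak at mRpS23 (arm 2L, 13835248 to 13835658) reached 2784, rank 21, with ranks of 19 in replicate 2 and 25 in replicate 3. Its summit lay 370 bp upstream of mRpS23 but 122 bp upstream of the neighbour CenG1A, an ArfGAP gene.

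The small-subunit genes mRpS2 and mRpS6 followed. At mRpS2 (arm 2L, 4850358 to 4850731) the value was 1112, rank 273, with ranks of 290 in replicate 2 and 273 in replicate 3. At mRpS6 (arm 3L, 4364282 to 4364588) it was 496, rank 1227, with ranks of 1141 in replicate 2 and 1291 in replicate 3. Their partners are Mon1, part of the exchange factor for Rab7, and Cip4, an F-BAR protein. Lower values were found at mRpS26 (334), mRpS18B (320) and mRpS24 (296). Those at mRpS22, mRpS31 and mRpS18A were 244, 237 and 98.5. Of the paralogues mRpS18A, mRpS18B and mRpS18C, the first 2 were bound and mRpS18C had no summit in any list.

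The bound members had a middle signal close to that of bound genes in general and more values at the high end. Their signal values had a median of 327 (range 98.5 to 4778), beside 308 over all 2362 bound protein-coding genes, and an upper quartile of 1210, beside 610.0. Their ranks had a median of 2149, beside 2302, and the quartile of highest peaks ended at rank 230.25, beside 869.5. Of the 20 bound members 17 had a head-to-head neighbour, defined below. Over all bound genes with such a neighbour the median signal value was 387, above that of the members, and the upper quartile was 712, below theirs. The peaks at the members had a median width of 383 bp, beside 298 bp over all 7488 optimal peaks, at promoters or elsewhere. The width over promoter peaks alone was not computed. No member had more than 1 optimal summit within 500 bp of a TSS.

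**Figure D2:**
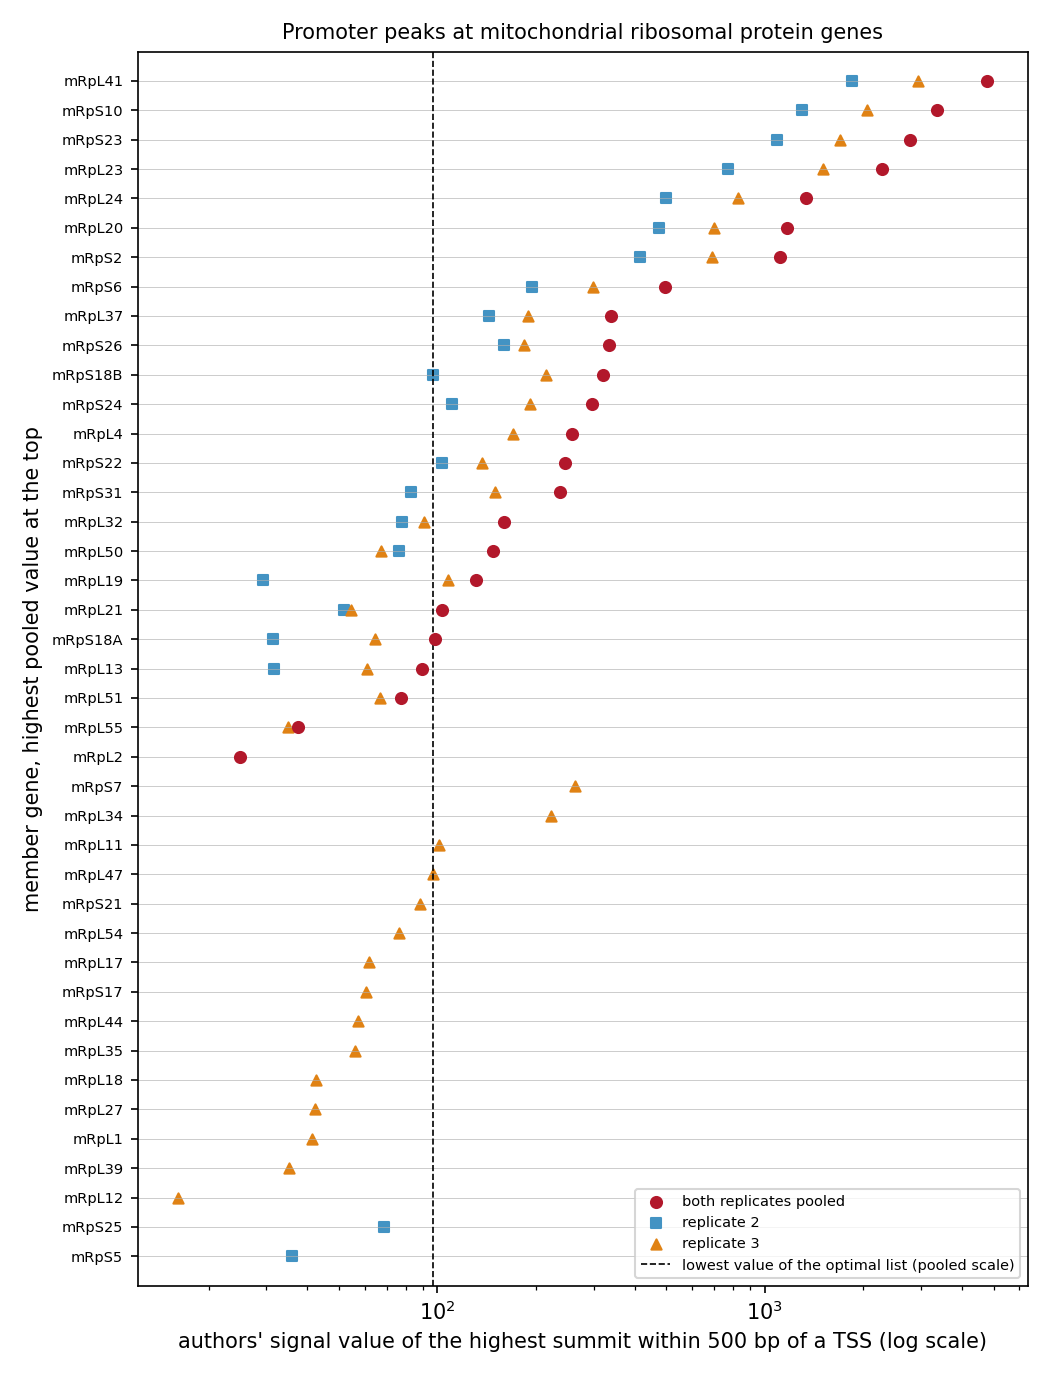
Authors' signal value (horizontal log axis) of the highest summit within 500 bp of a TSS at each of the 41 mitochondrial ribosomal protein genes with a summit in any list (rows), in the pooled list (circles), replicate 2 (squares) and replicate 3 (triangles), with the lowest value of the optimal list as a dashed line on the pooled scale. Values run from 4778 at mRpL41 down, 15 genes have a triangle alone, and scales differ between lists.

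Sequence at the summits is printed for 8 bound members with high peaks between genes, since their centres are the bases nearest to the recovered protein. Each window is dm6 sequence from RefSeq, holds the summit base with 50 bases to either side, and is written 5′ to 3′ on the strand of the ribosomal protein gene. Capitals mark the word TAACA or its reverse complement TGTTA, which all 8 printed windows hold, beside 11 of the 20 bound members. Some higher peaks are not shown, among them that of mRpL41, whose window lacks the word, so the 8 windows are examples and not a sample of the 20. The windows are mRpS10 (chr3R:15229485-15229585, plus strand), mRpS23 (chr2L:13835392-13835492, minus strand), mRpL24 (chr2L:4945430-4945530, minus strand), mRpL20 (chr3L:13018069-13018169, minus strand), mRpS2 (chr2L:4850519-4850619, minus strand), mRpS6 (chr3L:4364349-4364449, plus strand), mRpS26 (chr3L:18106327-18106427, plus strand) and mRpS18B (chr2L:20097304-20097404, minus strand).
mRpS10: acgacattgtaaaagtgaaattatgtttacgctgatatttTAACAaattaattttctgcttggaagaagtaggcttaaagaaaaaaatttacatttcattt
mRpS23: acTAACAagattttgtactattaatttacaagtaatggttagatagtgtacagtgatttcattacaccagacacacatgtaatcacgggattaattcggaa
mRpL24: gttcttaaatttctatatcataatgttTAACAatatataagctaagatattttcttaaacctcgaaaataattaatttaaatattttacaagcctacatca
mRpL20: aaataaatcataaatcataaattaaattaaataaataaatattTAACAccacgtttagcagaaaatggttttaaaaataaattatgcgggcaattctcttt
mRpS2: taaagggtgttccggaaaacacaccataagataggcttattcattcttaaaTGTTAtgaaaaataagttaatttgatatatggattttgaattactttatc
mRpS6: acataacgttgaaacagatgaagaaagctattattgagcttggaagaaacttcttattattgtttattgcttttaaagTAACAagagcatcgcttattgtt
mRpS26: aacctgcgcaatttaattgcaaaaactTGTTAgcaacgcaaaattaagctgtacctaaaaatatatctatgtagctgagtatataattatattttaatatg
mRpS18B: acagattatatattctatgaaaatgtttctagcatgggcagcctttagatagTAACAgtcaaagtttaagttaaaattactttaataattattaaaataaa

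These windows were rich in A and T. Within 50 bp of the summit the 20 bound members had a median GC content of 26.2% (range 18.8 to 40.6%), beside 29.7% over 2053 optimal peaks at promoters. The word TAACA, on either strand, was found at 11 of the 20 member summits (55.0%) and at 32.1% of all promoter summits. The longer TAACAA was found at 7 (35.0%), beside 14.8%. The Sox core word ACAAT, on either strand, was found at 6 (30%), beside 34.4%, and its longer form AACAAT at 4 (20%), beside 15.8%. The GATA word AGATAA was found at 4 member summits (20%), beside 8.48%, and the homeodomain word TAATTA at 3 (15.0%), beside 13.7%. AT-rich words are found more often in AT-rich windows, and the part of base composition in these shares was not tested. TAACAA contains TAACA and AACAAT contains ACAAT, so these counts overlap. The words were chosen with earlier results of these data known, so their shares at these summits are a description only.

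The summits kept a narrow position in front of the genes. In 19 of 20 bound members the summit lay upstream of the TSS (95.0%), beside 88.8% of all bound genes. The median position was 150.5 bp upstream, with the middle 50% from 185.5 to 138.25 bp upstream. Over all bound genes the median was 167 bp upstream with the middle 50% from 267 to 103 bp upstream. Between 50 and 250 bp upstream lay 17 of the 20 member summits (85.0%), beside 56.6% of all bound genes and 69.9% of bound genes with a head-to-head neighbour. The exceptions were mRpL23 downstream of its TSS, and mRpL20 at 252 bp and mRpS23 at 370 bp upstream. By annotation 18 of the 20 summits were intergenic, and those of mRpL23 and mRpS18A lay in a 5′ UTR. The 5′ UTR at mRpS18A is that of the neighbour CG31460.

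**Figure D3:**
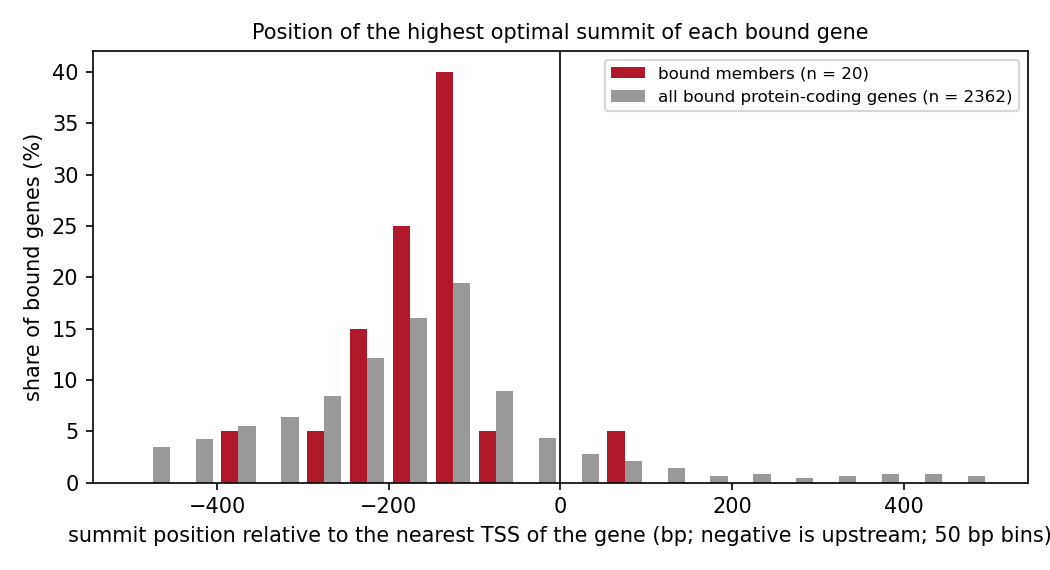
Position of the highest optimal summit relative to the nearest TSS of its gene (horizontal axis, bp in bins of 50) as a share of bound genes (vertical axis, %), for the 20 bound mitochondrial ribosomal protein genes (red) and all 2362 bound protein-coding genes (grey). The bin from 150 to 100 bp upstream holds 8 members (40%) and 19.5% of all bound genes.

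Most of these peaks stood in promoters that the ribosomal protein gene shares with a neighbour. A head-to-head partner was defined as a protein-coding gene on the other strand whose TSS lies within 500 bp upstream. Such a partner was found for 53 of the 73 members (72.6%), beside 27.3% of all protein-coding genes. Among bound genes it was found for 17 of the 20 members, beside 1020 of all 2362. Of the members with a partner 17 of 53 were bound (32.1%), beside 26.7% of all genes with one. Of the members without a partner 3 of 20 were bound (15.0%), beside 13.2% of all such genes. Within each class the members' share was therefore nearer to the background than it was over all genes. With partners counted only within 250 bp, 4 of 25 such members were bound (16%), below the 22.4% of all genes with one.

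All 17 bound members with a partner had the summit within 500 bp of the TSS of that neighbour too. For summits upstream of the member this follows from the limits of 500 bp used for summits and for partners. Only the summit of mRpL23, downstream of its TSS, could have lain farther away. A peak within reach of both TSSs cannot be assigned to either gene. The other 3 bound members, mRpL41, mRpL4 and mRpL19, had no other protein-coding TSS within 500 bp of the summit. With TSSs of genes of any type counted, 18 of the 20 bound members had another TSS within that distance. The partners have varied functions. Apc2, at mRpS24, belongs to the complex that marks beta-catenin for degradation. The gene qless, at mRpL32, encodes a polyprenyl diphosphate synthase of coenzyme Q synthesis, mei-P22 at mRpL50 is needed for meiotic double-strand breaks, and rept at mRpL21 encodes an AAA+ ATPase. The others were Kua at mRpS18B, CG13698 at mRpS26, CG5003 at mRpS22 and hzg at mRpS31.

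The distance between the paired TSSs was longer at bound members than at the others, without a test. It had a median of 328 bp at the 17 bound members with a partner, 153 bp at the 36 with a partner that were not in the optimal list, and 244 bp over all 3815 genes with a partner. With a gap above 200 and up to 500 bp 15 of 31 members were bound (48.4%), beside 31.9% of all genes with such a gap. With a gap of up to 200 bp 2 of 22 members were bound (9.09%), beside 18.9% of all genes. Those 2 were mRpL23, with a gap of 24 bp to CG9004, and mRpS18A, with 80 bp to CG31460, and both had the summit outside the gap, in a 5′ UTR.

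The replicates ranked the bound members in nearly the same order. The summits of 19 of the 20 lay in peaks of both replicates (95.0%), beside 89.6% of the 2053 optimal promoter peaks. The exception was mRpL4, with a pooled value of 258 and rank 2855, which had 171 and rank 2820 in replicate 3 and no summit within 500 bp in replicate 2. Over the 19 members with a summit in both lists the Spearman correlation of their ranks was 0.953, given as a description, since both lists were called on the same kind of chromatin with the same control. The optimal list was itself made from the replicates, so the overlap is not independent of it. Ranks differed most at mRpL19, which ranked 10330 in replicate 2 (signal value 29.2) and 4650 in replicate 3 (108). At mRpL50 replicate 2 gave the higher rank, 3909 (76.2), and replicate 3 gave 7322 (67.3).

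The pooled list alone bound 4 members, all of the large subunit. At mRpL13 the value was 89.8, just under the lowest value of the optimal list, 97.2, while mRpS18A at 98.5 was just above it. The mRpL13 summit lay 71 bp upstream and had ranks of 9443 in replicate 2 and 7992 in replicate 3. Its TSS position is shared by CG10602 on the same strand. At mRpL51 the value was 77.2 and at mRpL55 37.4, each with a peak in replicate 3 and none in replicate 2. The mRpL55 partner is ATPsynD, a subunit of the ATP synthase. At mRpL2 the value was 24.9, rank 23635 of 30000, with no summit in either replicate. The summit lay in an intron of its partner, the forkhead gene FoxK. It was 8 bp from a TSS of FoxK and 428 bp from the mRpL2 TSS.

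A further 15 members had a summit within 500 bp in replicate 3 but none in the pooled list (20.5%), beside 9.89% of all genes. The same count for replicate 2 was 2 members, mRpS5 and mRpS25 (2.74%), beside 4.37%. Of the 15, 14 had a head-to-head partner, which is 26.4% of the 53 members with one, beside 16.6% of all genes with one. The 1 without a partner made up 5% of such members, beside 7.38% of all such genes. The highest of the 15 was mRpS7, paired with the cell cycle kinase gene Cdk1, with a signal value of 263, rank 1583 of replicate 3, 177 bp upstream. Then came mRpL34, paired with the dystroglycan gene Dg, with 222, rank 1993, 218 bp upstream. The other 13 ran from rank 4986 at mRpL11, paired with the mitochondrial protease gene HtrA2, to rank 24007 (signal value 16.1) at mRpL12, a stalk protein gene with no partner. Of all members with a partner replicate 3 bound 33 of 53 (62.3%), beside 51.0% of all genes with one.

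None of those 15 summits lay in a peak of replicate 2 or of the pooled list, although the pooled list was made from the reads of both. Their positions were like those of the optimal summits, with 13 of 15 upstream and 11 of 15 between 50 and 250 bp upstream, at a median of 119 bp upstream. They were mRpS7, mRpL34, mRpL11, mRpL47, mRpS21, mRpL54, mRpL17, mRpS17, mRpL44, mRpL35, mRpL18, mRpL27, mRpL1, mRpL39 and mRpL12. Peaks of this kind were not particular to the members. Among the 2000 highest peaks of replicate 3, 65 had a summit in no pooled peak (3.25%), and of those at promoters 54 of 843 (6.41%). Among the 2000 highest of replicate 2 there were 12 (0.6%), and at promoters 1.28%. Of the 15 genes only mRpS7 and mRpL34 ranked within the 2000 highest, and such peaks were more common at lower ranks. Among the 7488 highest, the share at promoters was 17.5% in replicate 3 and 5.65% in replicate 2. Over all 30000 it was 30.2% and 22.5%. Over all 30000 peaks, at promoters or not, it was 23.5% in replicate 3 and higher, 27.3%, in replicate 2. What differed in replicate 3 was not tested, and these 15 genes are given as seen in 1 replicate.

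The window at the highest of them is printed because it can be set beside those of the optimal peaks. It holds 50 bases of dm6 to either side of the replicate 3 summit of mRpS7 (chr2L:10386435-10386535, plus strand), in lower case throughout since neither TAACA nor TGTTA was found in it.
mRpS7: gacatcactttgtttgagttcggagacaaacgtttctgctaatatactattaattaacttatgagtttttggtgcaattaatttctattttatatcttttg

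Its GC content was 27.7%, within the range of the bound members.

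Genes without a summit in any list were less frequent among the members than among all protein-coding genes. In none of the 4 lists was a summit found within 500 bp of 32 of the 73 members, beside 7984 of all 13968 genes. Of the large subunit these were mRpL3, mRpL9, mRpL10, mRpL14, mRpL15, mRpL16, mRpL22, mRpL28, mRpL30, mRpL33, mRpL36, mRpL38, mRpL40, mRpL42, mRpL43, mRpL45, mRpL46, mRpL48, mRpL49, mRpL52 and mRpL53. Of the small subunit they were mRpS9, mRpS11, mRpS14, mRpS16, mRpS18C, mRpS28, mRpS29, mRpS30, mRpS33, mRpS34 and mRpS35. A head-to-head partner was found for 19 of the 32, at a median gap of 97 bp. A few members lay just past the limit of 500 bp. Optimal summits were 523 bp from mRpS25, 543 bp from mRpS5 and 616 bp from mRpL33, whereas the farthest inside it were mRpS23 at 370 bp in the optimal list and mRpL2 at 428 bp in the pooled one.

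The bound members were unevenly spread over the chromosome arms, which was not tested. On 3L 7 of 17 members were bound in the optimal list (41.2%, beside 18.5% of all genes there), on 3R 7 of 21 (33.3%, beside 18%), and on 2L 5 of 12 (41.7%, beside 17.5%). On 2R mRpL41 was the only one bound of 12 members (8.33%), beside 14.6% of all genes on that arm. On the X none of 11 members was bound, beside 16.3% of all X genes. Replicate 3 also bound none of these 11, beside 38.9% of all X genes, and replicate 2 bound mRpS25 alone. Head-to-head partners were found for 7 of the 11 X-linked members. Arms 4 and Y hold no member.

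Other genes of mitochondrial gene expression were bound about as often as genes in general. From a list of 45 symbols 40 were found in the annotation, and 8 of them were bound in the optimal list (20%), beside the 16.9% of all genes. Of these the RNA synthesis and maturation genes made up 4 of 11, among them PNPase, an exoribonuclease gene with a signal value of 3124, and PolrMT, the mitochondrial RNA polymerase gene, with 181. Of 18 aminoacyl-tRNA synthetase genes 3 were bound, CysRS-m (289), ProRS-m (262) and ArgRS-m (191). Of 9 translation factor genes mIF2 was bound (126). The mitochondrial ribosomal protein genes tko and bonsai, whose symbols do not follow the mRp pattern, had no summit in any list.

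The 2 other gene families compared lay on either side of the members. Of 92 genes for proteins of the cytoplasmic ribosome 31 were bound in the optimal list (33.7%) and 65 in replicate 3 (70.7%). Of 87 respiratory chain and ATP synthase genes 12 were bound in the optimal list (13.8%) and 36 in replicate 3 (41.4%). Over all protein-coding genes the shares were 16.9% in the optimal list and 37.0% in replicate 3. Head-to-head partners were found for 39.1% of the cytoplasmic ribosomal protein genes and 44.8% of the respiratory genes, both below the 72.6% of the members. No test was made between these families.

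An E-box word was frequent in the promoter sequences of the members. Windows from 250 bases before to 50 bases after each TSS were searched for 12 words on both strands. The E-box word CAGCTG was found in 41 of the 73 members (56.2%), beside 22.3% of all 13968 genes. It was as frequent in members with a partner (56.6%, beside 30.6% of all genes with one) as in those without (55.0%, beside 19.1%). It was found in 10 of the 20 bound members (50%) and in 31 of the 53 others (58.5%), so its presence did not follow binding in the optimal list. Of the other lists, 52.5% of the genes of mitochondrial translation and RNA, 32.2% of the respiratory genes and 12.0% of the cytoplasmic ribosomal protein genes had it.

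**Figure D4:**
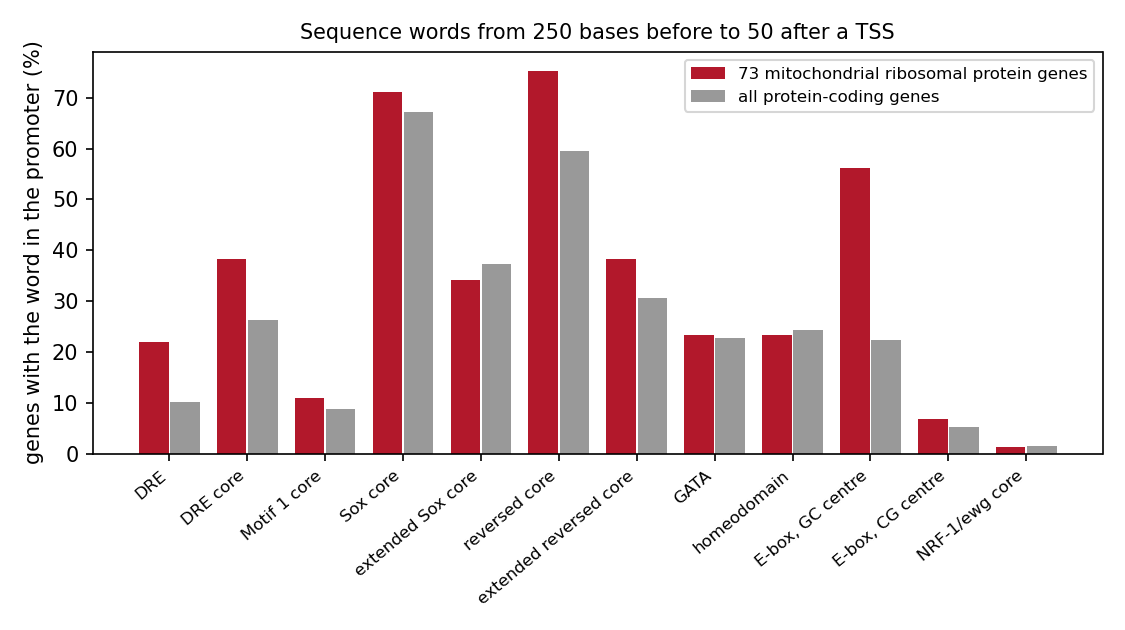
Share of genes with each of 12 sequence words between 250 bases before and 50 after a TSS (vertical axis, %), for the 73 mitochondrial ribosomal protein genes (red) and all protein-coding genes (grey). The E-box with a GC centre has the widest gap, at 56.2% of the members and 22.3% of all genes.

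This word lay at the TSS itself. Counting the TSS as 0, the fourth base of the copy nearest to it lay at a median position of 5 in the 41 members, with the middle 50% from -13 to 19, beside a median of -41 and the middle 50% from -117 to 1.75 over all 3110 genes that have it. That base lay between 50 bases before and 49 after the TSS in 36 of the 41 (87.8%), beside 54.8% of all genes with it. In the 10 bound members that have it, it lay 83 to 272 bp from the summit, with a median of 142 bp, and no member summit had it within 50 bp, beside 2.97% of all promoter summits. Members with more than 1 copy were mRpL23, mRpL24, mRpL32, mRpL42, mRpL54, mRpS2 and mRpS6.

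The 8 windows below are printed as examples of the sequence around the E-box. They were taken from members whose E-box lies close to the TSS, each with 30 bases of dm6 on the strand of the gene and CAGCTG in capitals. In 6 of the 8 the E-box is followed by tt. The windows are mRpL46 (chr3L:1777425-1777454, plus strand), mRpL11 (chr3R:14511821-14511850, plus strand), mRpL35 (chr3R:22023510-22023539, plus strand), mRpS21 (chr3R:13381790-13381819, minus strand), mRpS34 (chr3L:16348064-16348093, plus strand), mRpL45 (chr3R:22618471-22618500, plus strand), mRpS2 (chr2L:4850413-4850442, minus strand) and mRpS25 (chrX:14582959-14582988, minus strand).
mRpL46: tgtgccgcaaatCAGCTGttccggctctgg
mRpL11: cagcaataccatCAGCTGttgctgcttctt
mRpL35: gtgaatggcacaCAGCTGactgttacgcga
mRpS21: agtgatattcatCAGCTGtttagcagtaca
mRpS34: agccagccggcaCAGCTGttcgaccttccc
mRpL45: aatcacgtttgcCAGCTGgtcgcgttagtg
mRpS2: aacactacccacCAGCTGtttaccaaaatc
mRpS25: tagccgaccgatCAGCTGttcgcattacac

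**Figure D5:**
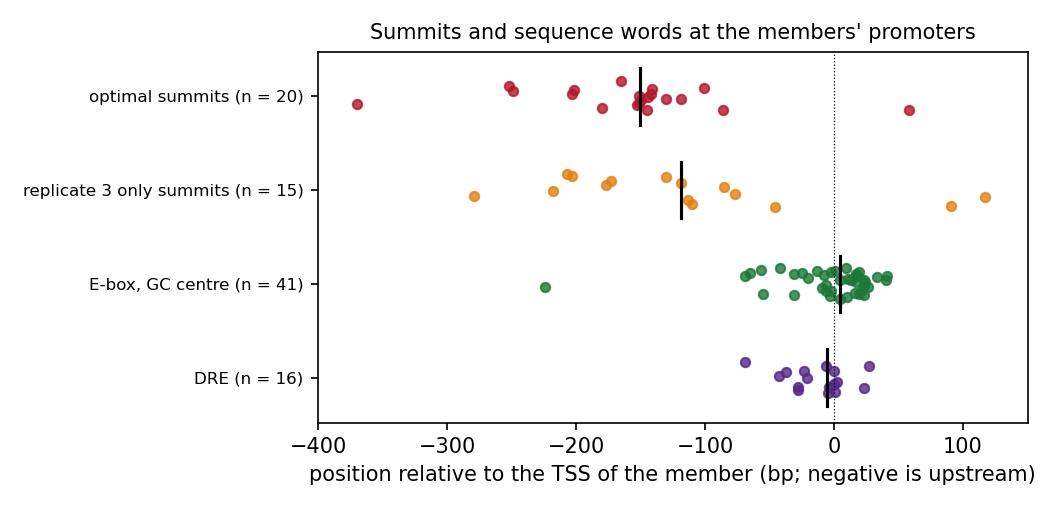
Positions relative to the TSS of the mitochondrial ribosomal protein gene (horizontal axis, bp), with 1 point per gene and the median as a bar, for the 20 optimal summits, the 15 summits seen in replicate 3 only, the E-box with a GC centre in 41 genes and the DRE in 16 genes. The summits sit at a median of 150.5 bp upstream, whereas the E-box copies lie around the TSS at a median of 5.

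The other words set the members apart less. The DNA replication-related element (DRE) TATCGATA, bound by the factor Dref, was found in 16 members (21.9%), beside 10.2% of all genes. The difference lay in members without a partner (35.0%, beside 6.86%), since those with one had it in 17% of cases, beside 19.0%. Its core ATCGAT was found in 28 members (38.4%), beside 26.3%. TAACA was found in 55 members (75.3%), beside 59.6%, and TAACAA in 28 (38.4%), beside 30.6%. In bound members TAACAA was found in 13 of 20 (65.0%), and in the other members in 15 of 53 (28.3%). Over all members the Sox words ACAAT (71.2%, beside 67.3%) and AACAAT (34.2%, beside 37.3%) were near the background. In bound members AACAAT was found in 10 of 20 (50%), and in the other members in 15 of 53 (28.3%). For ACAAT these shares were 75% and 69.8%. Shares of these words in all bound and all other genes were not computed. Near the background were also AGATAA (23.3%, beside 22.8%) and TAATTA (23.3%, beside 24.2%). The Motif 1 core GGTCACAC was found in 8 members (11%, beside 8.69%) and in none of the 20 bound ones. The E-box CACGTG was found in 5 (6.85%, beside 5.29%) and the NRF-1 core GCGCATGC in 1 (1.37%, beside 1.45%). A match is a run of letters in the reference sequence and does not show that a factor binds there.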

How the data were processed

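Anti-GFP ChIP-seq was made from whole Sox102F-GFP embryos in 2 biological replicates, per the labels. The authors deposited peak lists on dm6, and per the file lists deposited with them each list was called on alignments against a control file, which was not analysed here. As deposited, the signal value is a score from the authors' caller without any stated scaling for depth, and was used only within a list. The deposited −log10 q-value was constant at 4.18 in the optimal list and was not used. For the aligner and the peak caller, names and versions were not given in the sources used here. Summits were placed on Ensembl release 115 genes of the 7 chromosome arms, and sequence came from RefSeq for the same assembly, whose arm lengths held every peak. The search for summits was checked on simulated lists. Sequence words were counted on both strands.

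The members, lists and words were chosen with earlier results of these data known. Named with values were the 12 members with the highest optimal signal value, up to 6 bound in the pooled list only, those without a peak in a replicate, the nearest on each side of 500 bp and their partner genes. Alternatives were windows of 250 and 1000 bp, the whole peak interval, RefSeq TSSs, stricter lists and each replicate alone. With 1 group no test between samples was possible. Of the 45 symbols listed for mitochondrial translation and RNA, 5 were not found. Summit windows with UTR sequence beyond 30 bases and those of some members were left out. The tools were pandas 2.3.3 and numpy 2.4.6 under Python 3.11.15, with matplotlib 3.10.9 for plots.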

Additional observations from a re-analysis of the deposited data

How the results depend on the processing

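The members bound in the optimal list numbered 18 within 250 bp (24.7%, beside 12.2% of all genes), 24 within 1000 bp (32.9%, beside 20.8%), 22 by the whole peak interval (30.1%, beside 18.3%), 15 among peaks above the median signal (20.5%, beside 11.6%) and 20 with RefSeq TSSs (beside 16.9%). With 1 replicate left out in turn and as many of the highest peaks of the other, the count ran from 18 to 25, beside 15.6 to 20.4% of all genes. Without replicate 2 mRpL11, mRpL34, mRpL47, mRpL51, mRpL54, mRpS21 and mRpS7 were gained and mRpL21 and mRpS18A lost. Without replicate 3 mRpS25 was gained and mRpL19, mRpL4 and mRpS18A were lost. In the pooled list the count ran from 22 without replicate 3 to 38 without replicate 2. The median summit position, with upstream negative, stayed between -150.5 and -144 bp. Bound members whose peak also lay at another protein-coding TSS numbered 17 within 500 bp, 12 within 250 bp and 22 within 1000 bp. With genes of any type counted they numbered 18 within 500 bp. Of 76 recomputed values 60 moved by less than the limits used and 16 by more, of which 12 were word counts in wider windows. With 500 bp to either side of a TSS the E-box CAGCTG was found in 53 members, beside 47.4% of all genes. Partner distances were tried after seeing the data, and with 250 bp 25 members had a partner, beside 14.2% of all genes, and 4 of them were bound (16%), beside 22.4% of all genes with such a partner. With 1000 bp 19 of 58 were bound (32.8%), beside 25.6%. No paired analysis was possible because the 2 samples form 1 group. Depth is unknown, so the absence of a summit does not show the absence of binding.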

Other observations

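After the printed windows had been seen, the E-box followed by TT, CAGCTGTT on either strand, was counted in the same promoter windows. It was found in 29 of the 73 mitochondrial ribosomal protein genes (39.7%), beside 9.34% of all protein-coding genes. Among genes with the E-box, that is 70.7% of the members and 42.0% of all genes.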
